A study of Rattus norvegicus with 15 samples.

Results

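Cytosolic ribosomal protein genes are the genes whose products join ribosomal RNA to form the large and small subunits of the ribosome that translates nuclear messages. They were taken from a table of 37991 rat genes as the protein-coding rows named Rpl or Rps with a number, together with Rplp0, Rplp1, Rplp2 and Rpsa, where the mean read count over 15 libraries was at least 100. Of 87 rows with such a name, 84 met the count minimum, 49 of the large and 35 of the small subunit. All 84 were among the 17201 genes with enough counts for a test. Just outside the minimum were Rpl10l, Rpl30l1 and Rpl39l, with mean counts of 31.4, 6.07 and 3.20, and just inside it were Rps4y2 and Rpl35a, with 218 and 797. The symbol Rps19 stands for 2 rows of the table (genes 29287 and 108348115), and both were kept.

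RNA was sequenced from the multifidus, a paraspinal muscle, of wild type male Sprague Dawley rats aged 12 weeks. The control group (2 libraries) had no injury, and the surgery group (2 libraries) had a spinal operation that injures this muscle and the L5 nerve, with no treatment afterwards. The pMT group (4 libraries) had surgery and then plasma-derived mitochondria (pMT) from human blood, 25 μg in 100 μL at each of the injected sites and 50 μg per rat, given on day 14, with tissue taken on day 28. The VitD group (3 libraries) had surgery and cholecalciferol (VitD), 150 μg per site and 300 μg per rat. The pMT/VitD group (4 libraries) had surgery and both agents at these doses. The days of injection and collection are not stated for the groups with VitD. Nothing in the labels says that libraries of a group came from separate rats, so the p-values measure the spread between these libraries.

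Cells make the ribosomal proteins in nearly equal numbers, because every ribosome holds a single copy of most of them. Their messages are short, abundant and usually begin with a C followed by a run of pyrimidines, the 5′ terminal oligopyrimidine (TOP) tract, through which the growth regulator mTORC1 and the RNA-binding protein Larp1 control their translation. Skeletal muscle is unusual in having its own version of a core ribosomal protein. Rpl3l, a paralog of Rpl3 that is made in skeletal muscle and heart, takes the place of Rpl3 in the large subunit of muscle ribosomes, and injured or growing muscle is known to shift towards Rpl3.

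The sequences around the start sites of 7 members are shown because they carry the paralog comparison and the TOP tract. They run from 40 bases before the RefSeq start through the first 25 transcribed bases (GRCr8 assembly), and capitals mark a stretch of at least 5 pyrimidines counted from a C within 5 bases of the start. Pyrimidines farther upstream are not counted, and the stretch of Rpl22 continues there.
Rpl3 (chr7:113507966-113508030, minus strand): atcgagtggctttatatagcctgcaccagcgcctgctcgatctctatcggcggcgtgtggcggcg
Rpl3l (chr10:14258406-14258470, plus strand): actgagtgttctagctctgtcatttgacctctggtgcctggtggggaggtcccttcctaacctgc
Rpl22 (chr5:168117921-168117985, plus strand): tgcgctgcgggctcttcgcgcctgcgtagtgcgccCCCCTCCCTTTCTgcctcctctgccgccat
Rpl22l1 (chr2:113683156-113683220, plus strand): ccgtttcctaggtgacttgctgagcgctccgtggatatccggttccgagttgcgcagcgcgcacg
Rps27 (chr2:177964582-177964646, minus strand): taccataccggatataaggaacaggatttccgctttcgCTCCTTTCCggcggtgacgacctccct
Rps18 (chr20:4933705-4933769, plus strand): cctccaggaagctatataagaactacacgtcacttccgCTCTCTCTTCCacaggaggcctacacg
Rpl35a (chr11:81234997-81235061, minus strand): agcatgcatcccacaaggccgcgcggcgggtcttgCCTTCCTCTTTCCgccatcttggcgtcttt

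Rps27, Rps18, Rpl22 and Rpl35a carry the tract at their annotated start, with stretches of 9, 11, 13 and 13 pyrimidines so counted. Rpl3, Rpl3l and Rpl22l1 have no such run there. A RefSeq promoter was found for 64 of the 84 members, and 37 of these (57.8%) held the run, against 17.0% of all 33469 promoters of the same length. The letters CTTCCGG, searched on both strands of 300 bases and known as the core of sites of the ETS factor family, were in 20 member promoters (31.25%) and in 8.75% of all. The consensus of the muscle factor MEF2, searched in the same way, was in 0 of the 64 and in 3.84% of all promoters. A match depends on the annotated start and is a description of these letters, not evidence of a bound factor.

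Ribosomal protein messages made up a small and abundant class in this muscle. Members took 2.40% to 3.93% of the counts and 5.73% to 8.37% of the TPM of a library, where TPM is a level per length that the authors scaled to the same total in every library. Total counts were 52342134 to 73557878 per library. On the TPM scale the most abundant large subunit members were Rpl41, Rpl24 and Rplp1, with means of 1646, 1541 and 1496 over 15 libraries. Among the most abundant small subunit members were Rps29 and Rps18, with means of 1653 and 1551. At the low end were the paralogs Rpl7l1, with a mean of 21.8 TPM, and Rps4y2, with 4.85. Rpl35a, Rpl8 and Rplp2, which make core proteins, were also low at 48.0, 54.9 and 73.9 TPM. For these 3 genes most counts lay elsewhere: rows of the table that describe copies of the same protein held 94.7%, 90.9% and 91.5% of the counts of gene and copies together. The table had 240 such rows, and because the handling of reads with several matches is not stated, levels of members with near-identical copies are uncertain.

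**Figure D1:**
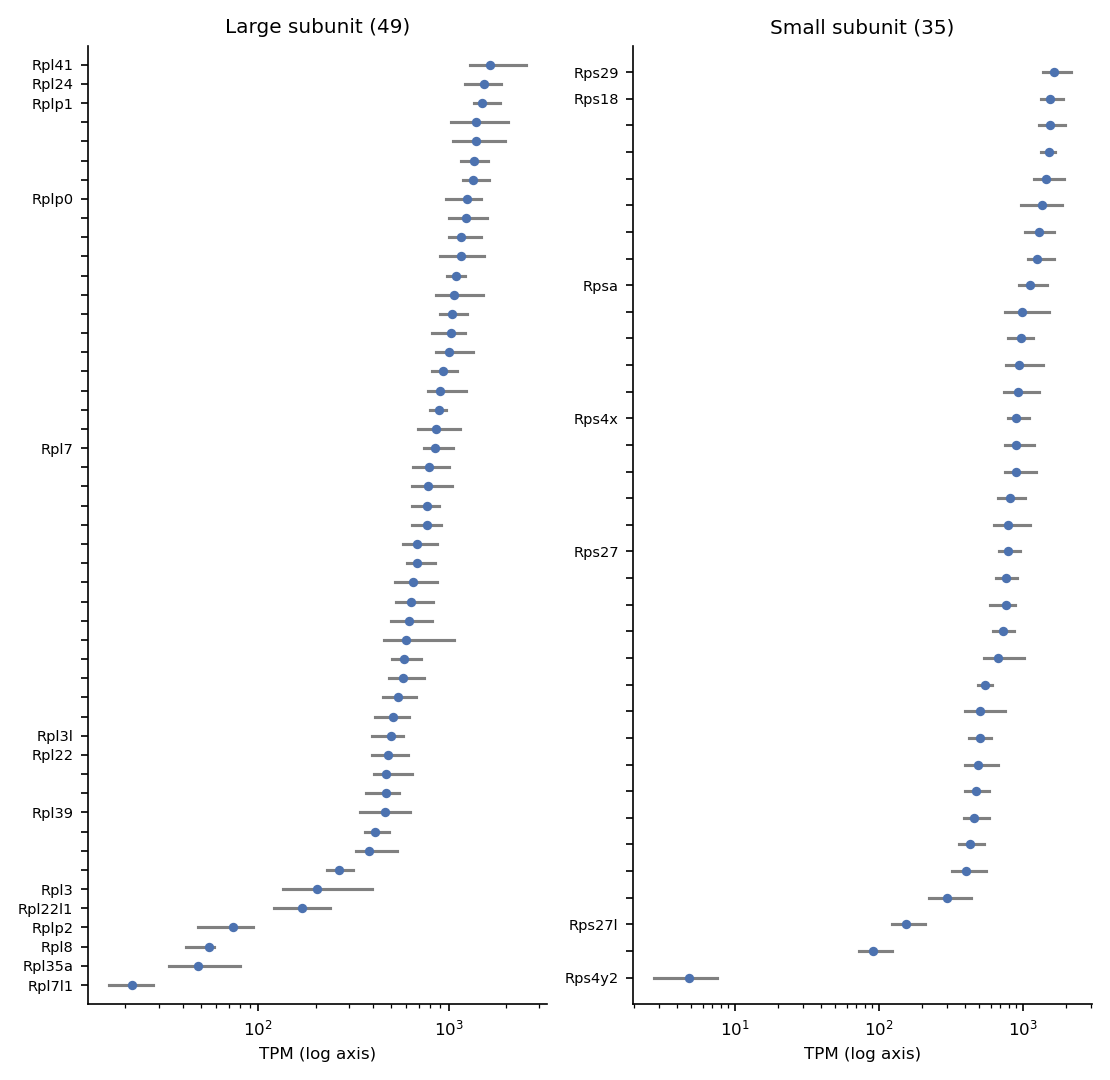
Level of each ribosomal protein gene in TPM (log axis), for the 49 large and 35 small subunit members. Genes named in the text are labelled, points are means over 15 libraries and bars run from the lowest to the highest library; the top member is Rps29 at 1653, and the paralogs Rpl7l1 (21.8) and Rps4y2 (4.85) lie at the bottom.

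Some facts about the libraries bear on all that follows. The pMT replicate 4 and the pMT/VitD replicate 4 stood apart from their groups. Spread between libraries is given as a multiple of the counting variance. It was 12.4 between pMT replicate 4 and pMT/VitD replicate 1, but 127 to 257 between pMT replicate 4 and the other pMT libraries. The libraries nearest to pMT/VitD replicate 4 were control replicates 1 and 2, at 21.5 and 24.6, followed by pMT replicate 2 at 27.1. Spread was 86.3 to 129 between pMT/VitD replicate 4 and its own group. Whether these labels are right was not tested, they were kept as given, and the main counts and the values of Rpl3, Rpl3l, Rpl8 and the gene lists are also given without the pair. The pair stands apart by these same counts, so leaving it out removes spread within its groups. Here and below, calls and p-values without the pair are descriptions, and no conclusion is drawn from them. VitD replicates 2 and 3 lay near the surgery libraries (6.07 to 19.9, against 4.02 between the surgery replicates), and VitD replicate 1 lay farther (68.1 and 74.5) than pMT replicates 1 and 2 did (31.0 to 43.0). No pair of libraries agreed within sampling noise. A row that the GRCr8 annotation names Rps25-ps11 (LOC691532) had 13 to 15 counts in each surgery and VitD library and 1374 to 3248 in each control, pMT and pMT/VitD library. Among operated rats this row divides the libraries exactly as pMT does, so in these data the presence of pMT and whatever sets this row apart cannot be told apart. The row also divides control (1878 and 1797 counts) from surgery (15 and 13). In that comparison, too, the operation and whatever sets this row apart cannot be told apart. The tissue label held, as 10 of 10 muscle fibre markers were present and summed to between 110279 and 193324 CPM in every library, CPM being the count scaled to the library's size. In bulk tissue, fewer cells of a type and less RNA per cell cannot be told apart.

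The ribosomal protein genes moved together from library to library, and more by library than by group. Each member's log2 CPM, scaled with TMM factors, was compared with its own mean over the 15 libraries, and the median of these deviations over the 84 members was taken as the level of the class. Control replicates 1 and 2 lay at -0.02 and -0.0048, and surgery replicates 1 and 2 at -0.10 and -0.12. Within the pMT group the values were -0.11, -0.29, -0.49 and 0.39 in replicates 1 to 4, which spans most of the range of the whole series. All 84 members were above their own mean in pMT replicate 4 and 0 of 84 in replicates 2 and 3. The pMT/VitD libraries lay at 0.47, 0.43, 0.22 and -0.15, so that replicate 4 fell among the other groups. The VitD libraries lay at 0.08, -0.15 and -0.23. The span from the lowest to the highest library was 0.97 on the log2 scale.

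Single members followed the class closely, as 66 of 84 correlated above 0.9 with the median of the other members over the 15 libraries (median r = 0.96, a description over libraries that share depth and scaling). The 4 members below 0.7 were Rpl7l1 (r = 0.16), Rpl3 (0.33), Rpl3l (0.46) and Rps4y2 (0.61). They are a paralog pair and the rarer partners of Rpl7 and Rps4x. Rplp0, the scaffold of the ribosomal stalk, followed the class less closely (r = 0.80) than its partner Rplp1 (r = 0.94).

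**Figure D2:**
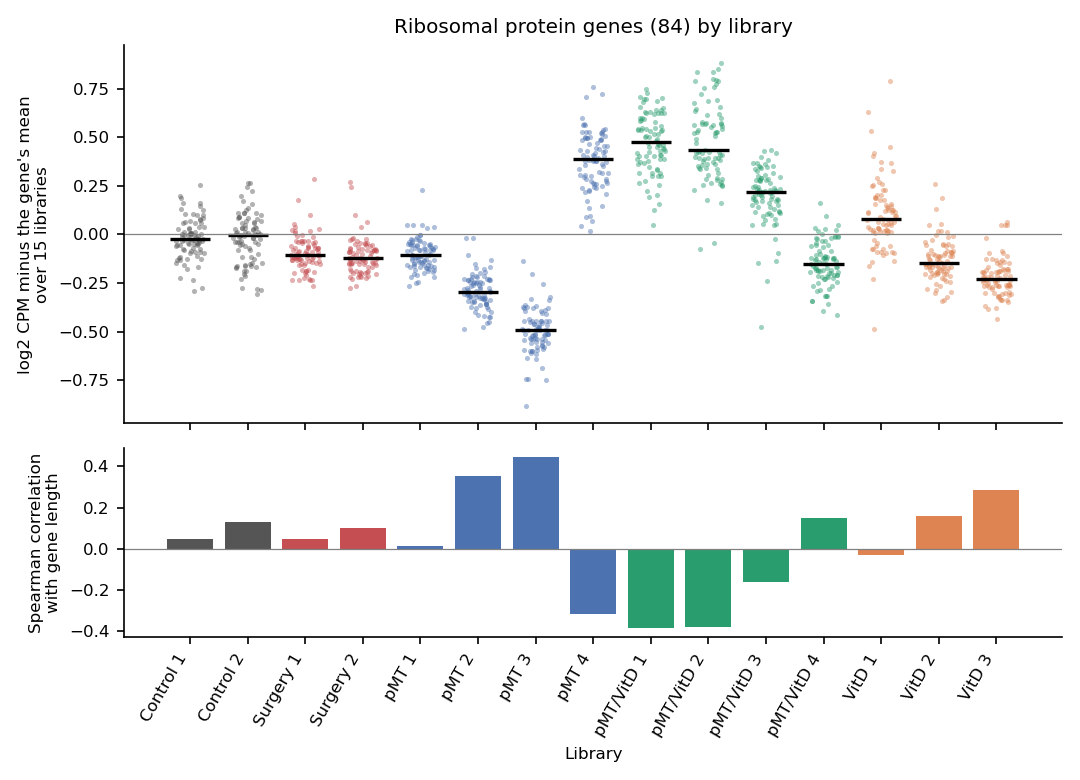
Deviation of each of 84 ribosomal protein genes from its mean over 15 libraries (upper panel, log2 CPM with TMM scaling, points are genes and black lines their medians) above the Spearman correlation of the same deviation with gene length over the other tested genes (lower panel, bars). Medians run from -0.49 in pMT replicate 3 to 0.47 in pMT/VitD replicate 1, and libraries with positive bars mostly have low medians.

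This common movement tracked a trend of all genes on length. Members are short: the median relative effective length, the mean count divided by the mean TPM, was 4.25 times shorter than that of all tested genes, and 70 of 84 were in the shortest 10%. In each library the Spearman correlation of the deviation with length was computed over the tested genes that are not members. It was 0.45 in pMT replicate 3 and 0.35 in pMT replicate 2, where long genes were relatively high. It was -0.39, -0.38 and -0.16 in pMT/VitD replicates 1 to 3 and -0.32 in pMT replicate 4, where short genes were high. It was 0.15 in pMT/VitD replicate 4, 0.05 to 0.13 in the control libraries, 0.05 and 0.10 in the surgery libraries and -0.03 to 0.28 in the VitD libraries. Across the 15 libraries the level of the members followed this correlation with Pearson's r = -0.98 and Spearman's rho = -0.95, given without a p because depth and scaling are shared.

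Short genes outside the class mostly moved in the same way. The 1651 tested non-members in the shortest 10% had medians of -0.37 in pMT replicate 3, 0.32 in pMT replicate 4 and 0.35 and 0.39 in pMT/VitD replicates 1 and 2. The 75 genes of the mitochondrial ribosome, which are encoded in the nucleus and make a separate ribosome, had medians of -0.26, 0.28, 0.38 and 0.41 in the same libraries. In VitD replicate 1, however, this set lay at -0.15 and the members at 0.08. Even within the class, the shorter members were the higher in pMT replicate 4 and in pMT/VitD replicates 1 and 2, with correlations of deviation and length of -0.65, -0.68 and -0.64.

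When a smooth trend on length was removed from every library, the span of the members' level fell to 0.21. The levels were then 0.11, 0.06, 0.07 and 0.0060 in the pMT/VitD libraries and -0.07, -0.07, -0.09 and 0.05 in the pMT libraries. The surgery libraries lay at -0.07 and -0.05, below all pMT/VitD libraries and among the pMT libraries. The control libraries lay at -0.04 and 0.05 and the VitD libraries at 0.07, -0.0099 and -0.04. Across the 15 libraries these levels still followed the length correlation (Pearson's r = -0.77, Spearman's rho = -0.66), so their order was not free of it. After the same removal the mitochondrial ribosome genes still differed by group. Their mean level was -0.13 in the surgery, -0.12 in the VitD, 0.05 in the control, 0.03 in the pMT and 0.10 in the pMT/VitD group. The source of the length trend was not tested.

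**Figure D3:**
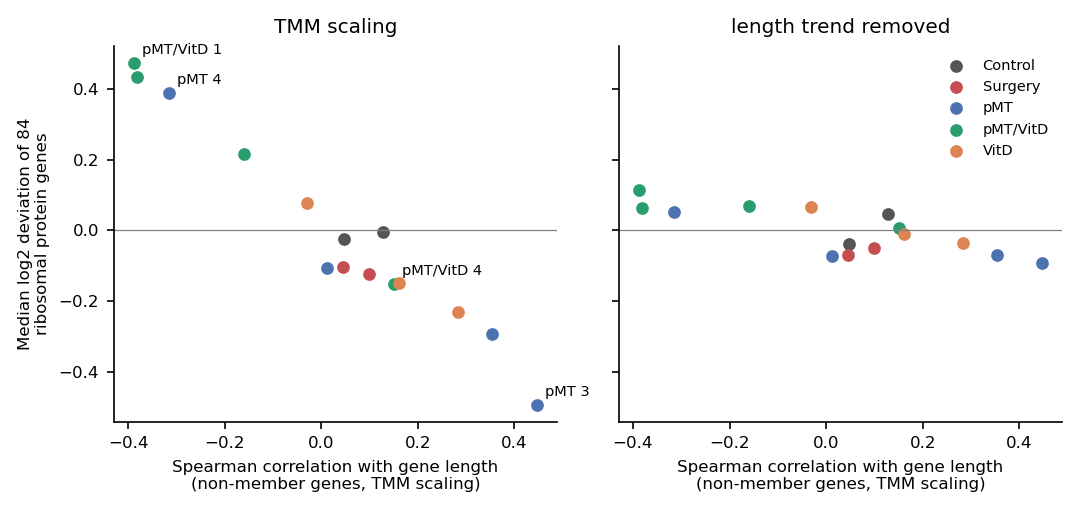
Level of the ribosomal protein genes in each of 15 libraries (median log2 deviation) against that library's Spearman correlation of deviation with gene length, with TMM scaling (left) and after the length trend was removed (right). On the left the points fall along a line from pMT/VitD replicate 1 to pMT replicate 3, and on the right the span shrinks from 0.97 to 0.21.

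Surgery was compared with control, 2 groups that the row LOC691532 also divides. No member passed the test, edgeR's quasi-likelihood F-test with Benjamini-Hochberg adjustment over all tested genes (adjusted p under 0.05), where 1.55% of all genes passed, 1.25% higher and 0.296% lower. At an unadjusted p under 0.05 there was 1 member, Rpl3l, against 17% of all genes, and DESeq2 called 1 and limma voom with quality weights called 6. The members' median log2 fold change was -0.10, with 21 of 84 above 0 (48.6% of all genes were), against -0.01 over all genes. With scaling by library size only, 79 of 84 were above 0 and the median was 0.17, but the median of all genes was then 0.25. The members thus lay slightly below the typical gene under both scalings, and which side of 0 they fell on depended on the scaling. The fits on the groups compared alone, with 2 libraries against 2, called 18 members lower and 5 higher. For fits other than the main one and the one without the pair that stood apart, the share of all genes called is not given. Here and below, the counts of such fits are therefore not read as results about the members.

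The pMT group was compared with the surgery group to see the effect of the transplanted mitochondria. Again 0 members passed (1.94% of all genes did), and 0 had an unadjusted p under 0.05, against 14.3% of all genes. DESeq2 called 0 and voom 10. The median was 0.02 for the members and 0.02 for all genes, with 46 of 84 members and 53% of all genes above 0. Without pMT replicate 4, a library with high ribosomal protein levels, 2 of 84 were above 0 and the median was -0.18, so this library decided the balance of directions. VitD minus surgery gave 0 members called (0% of all genes) and 0 at an unadjusted p under 0.05 (0.808% of all genes), with 0 calls by DESeq2 and by voom. Its median was 0.02 with 55 of 84 above 0 (50.4% of all genes). Without VitD replicate 1 the median was -0.07 and 12 of 84 were above 0.

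With TMM scaling, 3 of the 4 pMT/VitD libraries were among the 4 highest in ribosomal protein level. By share of TPM the order differed, with means of 7.21% in the VitD, 7.05% in the surgery and 6.85% in the pMT/VitD group, and VitD replicate 1 highest of all. In the test of pMT/VitD against surgery, 81 of 84 members were above 0, where 49.8% of all genes were, and the median was 0.39 against -0.0016 over all genes. Only 2 members passed, both higher, where 2.4% of all genes were called higher, 5.03% lower and 7.44% in all. These were Rpl3l and Rpl8. At an unadjusted p under 0.05 there were 17 of 84 members and 24.8% of all genes. Without pMT replicate 4 and pMT/VitD replicate 4, 47 members were called, each of them higher, with a median of 0.50. In that fit 20.1% of all genes were called. The libraries left out were picked from these same data, so the count is a description. With all 15 libraries kept and the length trend removed, the median was 0.12, and 2 members were called higher. With library size only the median was 0.05 against -0.32 over all genes, and the 2 called members, Rpl3 and Rpl7l1, were lower.

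Against the pMT group, 83 of 84 members were higher in the pMT/VitD group (46.2% of all genes were), with a median of 0.38, yet 0 passed (0% of all genes). There were 28 members at an unadjusted p under 0.05 (10.1% of all genes), and DESeq2 called 1 and voom 82. The shares of all genes called by DESeq2 and voom are not given here. Without the pair of libraries that stood apart, 80 members were called, each higher, with a median of 0.69. In that fit 18.3% of all genes were called. As above, the count without the pair is a description. The pair had length correlations of -0.32 (pMT replicate 4) and 0.15 (pMT/VitD replicate 4), opposite in sign to the other libraries of their groups. Length removal was not combined with leaving out the pair. With the length trend removed from all libraries the median was 0.11 and 0 were called. Whether pMT acted differently in rats also given VitD was tested as an interaction, which called 0 members (0% of all genes), with 2 at an unadjusted p under 0.05 (5.16% of all genes). Its median was 0.34, with 82 of 84 above 0 (47.3% of all genes). DESeq2 called 0 members there and voom 81, and 7 were called without the pair of libraries (1.89% of all genes). These comparisons share libraries, so they are not independent of each other.

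**Figure D4:**
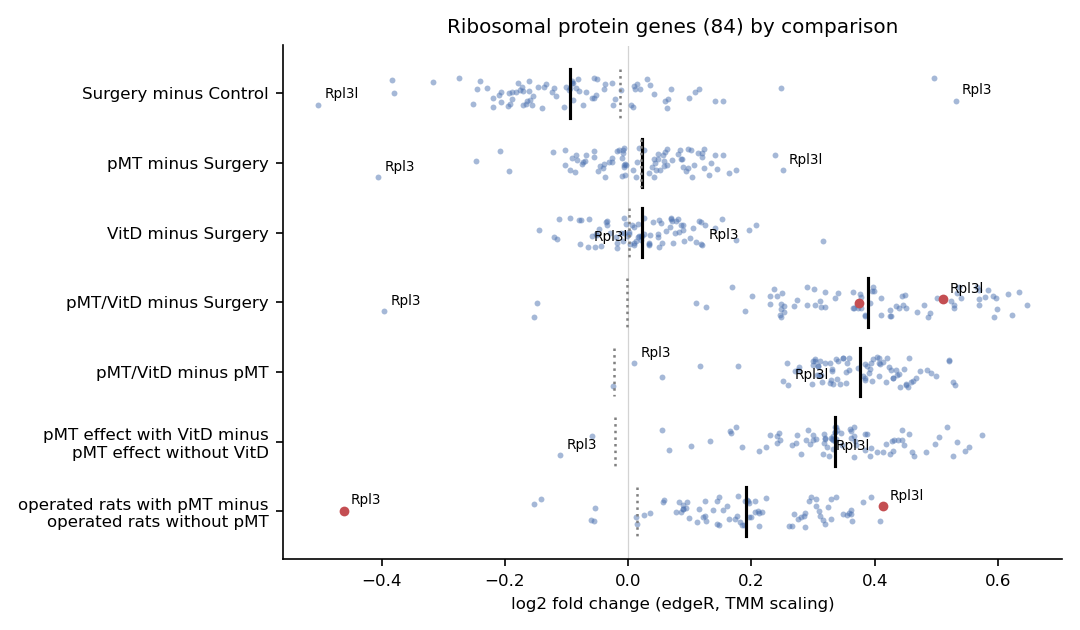
Log2 fold changes (edgeR, TMM scaling) of 84 ribosomal protein genes in each comparison, with called genes in red, the median of the members as a black line and that of all 17201 tested genes as a dotted line. The members lie to the right of the dotted line in both comparisons of pMT/VitD, with medians of 0.39 and 0.38.

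Inside the class, Rpl3l and Rpl3 moved in opposite directions. Their relative lengths are nearly equal (0.532 and 0.522 of the median gene), and a ratio within a library does not depend on how the library was scaled. Rpl3l made up 78.8% and 77.8% of the Rpl3l plus Rpl3 TPM in the control libraries. It made up 64.0% and 63.6% in the surgery libraries, below both controls. In the VitD libraries it was 51.3%, 63.4% and 68.3%. In the pMT libraries it was 75.1%, 75.5%, 75.9% and 68.6%, and in the pMT/VitD libraries 72.9%, 75.9%, 80.1% and 78.0%. Every library of rats given pMT lay above every operated library without pMT.

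As a mean the share was 78.3% ± 0.717 (SD, n = 2) in the control group, 63.8% ± 0.312 (SD, n = 2) after surgery and 61.0% ± 8.77 (SD, n = 3) in the VitD group. It was 73.8% ± 3.49 (SD, n = 4) in the pMT group and 76.7% ± 3.09 (SD, n = 4) in the pMT/VitD group. Groups were compared on the log2 ratio of Rpl3l to Rpl3. Surgery minus control was -1.03, with an exact permutation p of 0.333 (two-sided), the smallest that 2 against 2 libraries allow. Surgery lay below pMT by 0.68 and below pMT/VitD by 0.91, each with an exact permutation p of 0.0667, again the smallest the design allows. Without the pair that stood apart these differences were 0.81 and 0.88. VitD minus surgery was -0.16 (exact permutation p = 0.800), and 0.14 without VitD replicate 1. pMT/VitD minus pMT was 0.23 (exact permutation p = 0.257), and it was 0.10 without pMT replicate 4 and 0.07 without the pair. After these values were seen, the 8 libraries of operated rats with pMT were compared with the 5 without it, the same division that the row LOC691532 makes. The ratio was 0.89 higher with pMT, or 1.86-fold. This difference was 0.73 to 0.99 when each library was left out and 0.94 without the pair that stood apart. The closest libraries across the division were pMT replicate 4 (68.57%) and VitD replicate 3 (68.32%). The exact permutation p was 0.000777, the smallest of 1287 splits, and 0.00466 after adjustment over 6 tests. Because the division was chosen after the libraries were seen to separate fully, this p could only be the smallest. The adjustment does not correct for that choice, so no conclusion is drawn from it.

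**Figure D5:**
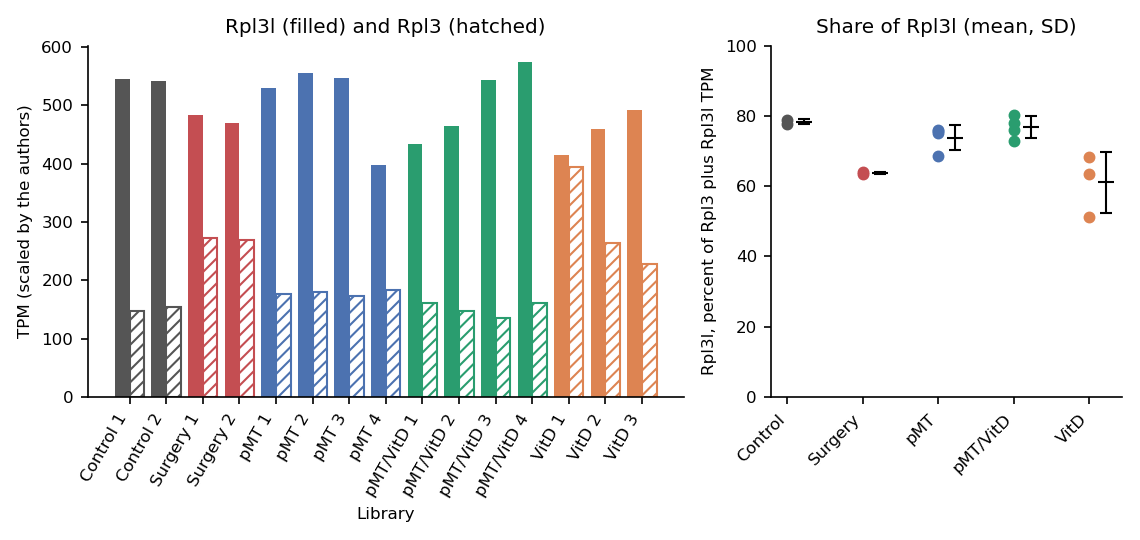
TPM of Rpl3l (filled bars) and Rpl3 (hatched bars) in each of 15 libraries (left) and Rpl3l as a percent of the sum of both (right, points are libraries, with the mean and SD beside them). The share is 77.8% to 78.8% in control libraries, 63.6% to 64.0% in surgery libraries and at least 68.6% in the 8 libraries with pMT.

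Both members of the pair contributed. Rpl3l stood at 585 and 581 CPM in control and at 418 and 406 after surgery. It was at 351, 400 and 429 CPM in the VitD libraries, 504, 486, 446 and 524 with pMT, and 565, 576, 657 and 550 with both agents. No library of operated rats with pMT overlapped those without, which was true of this member alone and of 11.4% of all genes. Rpl3l was higher in pMT/VitD than in surgery by 0.51 on the log2 scale (SE 0.13, adjusted p = 0.0309 from edgeR's quasi-likelihood test). Leaving out either surgery replicate or any of pMT/VitD replicates 1 to 3 ended this call (adjusted p up to 0.269), and without the pair that stood apart the value was 0.53 (adjusted p = 0.00862). In pMT/VitD minus pMT, Rpl3l was at 0.26 (adjusted p = 0.467), and without the pair at 0.33 (adjusted p = 0.0442, same test). The pair was picked from these same data, so no conclusion is drawn from p-values without it. Rpl3l was higher in operated rats with pMT than in those without by 0.41 (SE 0.09, adjusted p = 0.00371, same test), and by 0.40 without the pair. This division was chosen after the libraries were seen to separate on it, so no conclusion is drawn from that p. With pMT against without, 23.3% of all genes were called, 10% higher and 13.3% lower. In that comparison 78 of 84 members were above 0 (51.7% of all genes), 12 had an unadjusted p under 0.05 (36.6% of all genes) and 2 were called, Rpl3l and Rpl3. Of the 75 mitochondrial ribosome genes, 23 were called higher there and 0 lower. With library size only, Rpl3l was at 0.18 in pMT/VitD minus surgery and at 0.17 with pMT against without, and neither was called (adjusted p = 0.276 and 0.106).

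Rpl3 went the other way. Control replicates had 152 and 160 CPM, surgery replicates 227 and 224, and VitD replicates 321, 222 and 192. The pMT replicates had 161, 152, 136 and 231 CPM and the pMT/VitD replicates 203, 176, 157 and 149. These ranges overlapped through pMT replicate 4 and pMT/VitD replicate 1. Rpl3 was lower in operated rats with pMT than in those without by a log2 fold change of -0.46 (SE 0.14, adjusted p = 0.0335, edgeR's quasi-likelihood test). Leaving out any of 8 libraries (both surgery replicates, pMT replicates 1 to 3, pMT/VitD replicates 2 and 3 and VitD replicate 1) ended this call, with an adjusted p of up to 0.106. Without the pair that stood apart the value was -0.53 (adjusted p = 0.00666, same test). As for Rpl3l, the division was chosen after the libraries were seen to separate, so no conclusion is drawn from these p-values. On the TPM scale the roles changed: Rpl3 was at 135 to 183 with pMT and 228 to 394 without, with no overlap, and Rpl3l was at 398 to 574 and 415 to 492, with overlap. For both genes, whether the libraries separated fully thus depended on the scale. Over 12 other settings of the fit, Rpl3 was at -0.73 to -0.41 with pMT against without. Rpl3l was at 0.17 to 0.42 over the same settings. The sum of Rpl3 and Rpl3l was 747 ± 11.8 TPM (SD, n = 2) in the surgery group and 694 ± 4.04 (SD, n = 2) in the control group.

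Some markers of other cells moved with the ratio. The macrophage list rose with surgery in 2 of 8 genes, where 1.55% of all genes were called. It was lower in pMT/VitD than in surgery in 8 of 8, where 7.44% of all genes were called. Its sum was 498 to 500 CPM in the surgery libraries and 428 to 674 in the VitD libraries. It was 253 to 262 CPM in the control, 210 to 282 in the pMT and 196 to 282 in the pMT/VitD libraries. With pMT against without, Lyz2, a lysozyme of macrophages, was at -1.05 on the log2 scale (adjusted p = 9.50e-05), and Cd4 was at -1.06 and the collagen gene Col3a1 at -1.12 (adjusted p = 0.000229 and 0.000254, all from edgeR's quasi-likelihood test). T cell genes were called lower in 4 of 6 cases, fibroblast genes in 3 of 5 and B and plasma cell genes in 1 of 5. Of the muscle fibre list 2 of 10 were called, both higher, and red blood cell genes 3 of 3 higher. With pMT against without, 23.3% of all genes were called, 10% higher and 13.3% lower. The B and plasma cell and muscle fibre lists were near that total share. Myog, a factor of differentiating myoblasts, rose with surgery by 1.29 and was at -1.09 with pMT against without (adjusted p = 0.00817 and 3.07e-05, same test). Endothelial genes gave 1 call in each direction and 2 of 4 satellite cell and myoblast genes were lower, while adipocyte and Schwann cell genes gave 0 calls. Without the pair that stood apart, 6 of 8 macrophage genes were called higher with surgery (4.17% of all genes were called). With pMT against without, 8 macrophage, 4 T cell and 4 fibroblast genes were then called lower and 5 muscle fibre genes higher. In that fit 28.5% of all genes were called. The part of cell mixture in the Rpl3 ratio was not tested.

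The other paralog pairs were compared by their shares without a test. Rpl22l1 made up a mean of 24.9% to 26.6% of its pair with Rpl22 in the 5 groups, with libraries from 20.7% to 30.3%. Rps27l, a p53 target, made up 14.3% and 16.7% of its pair with Rps27 in control and 17.8% and 18.1% after surgery, 15.3% to 16.4% with pMT, 16.5% to 16.8% with VitD and 13.97% to 18.8% with both. The last range covers the surgery values. Rpl7l1, a factor of ribosome assembly, made up 1.92% and 2.44% of its pair with Rpl7 in control and 2.77% and 2.78% after surgery. Its level was at -0.15 with pMT against without (adjusted p = 0.125, edgeR's quasi-likelihood test). Rps4y2, the rarer partner of Rps4x, never exceeded 0.683% of their sum. Rps27l, Rpl22l1 and Rps4y2 passed in none of the comparisons with TMM scaling.

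Rpl8, a core protein near the catalytic centre, was the other called member in pMT/VitD. Its levels were 41.7, 43.9, 39.1 and 35.1 CPM in the pMT/VitD libraries and 30.5 and 31.1 CPM in the surgery libraries. On the TPM scale the groups overlapped, with 51.5, 56.8, 51.9 and 58.7 in the pMT/VitD libraries and 56.6 and 57.8 in the surgery libraries. The higher Rpl8 thus depended on the scale. The log2 fold change was 0.38 (SE 0.11, adjusted p = 0.0470, edgeR's quasi-likelihood test). Leaving out either surgery replicate or any of pMT/VitD replicates 1 to 3 ended the call (adjusted p up to 0.296), and without the pair that stood apart the value was 0.43 (adjusted p = 0.00685, same test). With the length trend removed it was 0.19 (adjusted p = 0.185), and over 12 other settings of the fit, this among them, 0.043 to 0.43. Most Rpl8 reads lay on copies, and with copies summed the adjusted p was 0.151. The ribosomal stalk, which recruits elongation factors, is built of Rplp0, Rplp1 and Rplp2. In pMT/VitD minus surgery these were at 0.23, 0.49 and 0.23, and Rpsa, a small subunit protein also known as the laminin receptor, was at 0.19, each with an adjusted p of at least 0.171. Rplp1 was at 760, 862, 661 and 501 CPM in the pMT/VitD libraries and at 512 and 479 in the surgery libraries, so that the lowest pMT/VitD value, in replicate 4, lay between the surgery values. Rpl39, the shortest member, ranged from 69.1 CPM in pMT replicate 3 to 174 in pMT/VitD replicate 2, and Rpl7l1, the longest, only from 33.0 to 45.4.

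The machinery that makes and uses ribosomes was described from lists written by hand. Ribosome parts whose names fall outside the rule include Fau, Rack1 and Rpl36al, which were at log2 fold changes of 0.31, 0.34 and 0.43 in pMT/VitD minus surgery, none of them called. Rack1, a scaffold on the small subunit, was higher with pMT than without by 0.25 (adjusted p = 0.0392, edgeR's quasi-likelihood test). The 49 ribosome biogenesis factors had a median correlation of 0.24 with the level of the class, and their median was 0.06 in pMT/VitD minus surgery, with 1 called, the assembly factor Rrs1 (-0.54, adjusted p = 0.0270). With pMT against without, 4 of the 49 were called higher, the most abundant of them Sbds (0.26), and 2 lower, the most abundant Rrs1 (-0.44), where 10% of all genes were higher and 13.3% lower. The 16 tested genes of RNA polymerase I, which transcribes ribosomal RNA, gave 0 calls by edgeR in any comparison, with 3 at an unadjusted p under 0.05 with pMT against without (36.6% of all genes). Without the pair that stood apart, 8 of 49 biogenesis factors and 0 of 16 polymerase genes were called in that comparison (28.5% of all genes), and 2 of the 16 in pMT/VitD minus surgery (20.1% of all genes).

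Translation factors had a median correlation of 0.52 with the class. Of 40, 2 were called in pMT/VitD minus surgery, both higher, Eif1 (0.61, adjusted p = 0.0494) and the cap-binding protein Eif4e (0.47, adjusted p = 0.0242), the latter chosen after its values were seen. With pMT against without, where 23.3% of all genes were called, 4 of 40 were higher and 1 lower, Pabpc1 (-0.44, adjusted p = 0.00675, edgeR's quasi-likelihood test). Eef1a1 and Eef1a2 were chosen after their values were seen. Eef1a1, the elongation factor of most tissues, whose message is a TOP message, was at -0.40 (adjusted p = 0.0694), and its muscle and nerve paralog Eef1a2 was at 0.11 (adjusted p = 0.445). Among 17 regulators of TOP messages and mTORC1, 3 were called higher with pMT, the most abundant the mTORC1 activator Rheb (0.36, adjusted p = 0.0320). The kinase Eif2ak3 was the 1 called lower, at -0.47 (adjusted p = 0.00153), and was higher with surgery than in control by 0.64 (adjusted p = 0.0498). These 4 of 17 stand beside 23.3% of all genes. Without the pair that stood apart, 10 of 40 translation factors and 6 of 17 regulators were called in the same comparison (28.5% of all genes), and 13 of 40 and 3 of 17 in pMT/VitD minus surgery (20.1% of all genes).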

How the data were processed

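RNA of 15 multifidus libraries was sequenced, and groups were taken from the sample labels. Upstream, Trimmomatic 0.38 was used by the authors for trimming, HISAT2 2.1.0 for alignment to rn6 and StringTie 2.1.3b for quantification against RefSeq genes. The authors deposited read counts per gene without normalization, which were used for every test across genes. TPM values, scaled by the authors to one total in every library, were used for levels, paralog ratios and relative lengths. FPKM values deposited by the authors were not used. Strand and reads with several matches are not stated.

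Counts were fitted with edgeR 4.0.16 (R 4.3.3), TMM factors, filterByExpr and the quasi-likelihood F-test (glmQLFit, robust) over all 15 libraries, with Benjamini-Hochberg adjustment over 17201 genes. Log2 CPM used a prior count of 2. The length trend was a loess curve (span 0.3) per library. Total counts were 52342134 to 73557878. DESeq2 1.42.0 and limma 3.58.1 (voom) were alternatives. On simulated counts for pMT/VitD minus surgery, 63.5% of 200 changed genes were recovered, 52% at 2-fold and 75% at 4-fold. RefSeq promoters (GRCr8) were matched by gene identifier.

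The members and gene lists were chosen with earlier results of these data known. Named were the paralog pairs, the stalk genes and Rpsa, the 3 most abundant members of each subunit, the lowest, shortest and longest members, called members, and the most abundant called genes of each other list. Some items that this rule names are not reported here.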

Additional observations from a re-analysis of the deposited data

Results flagged for a closer look

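In 70 sets of 4 libraries the highest or lowest library was compared with the other 3 by Dixon's ratio, and 4 sets had a library beyond the 95% critical value. Chance gives about 1 in 20, or 3.5 of 70. In pMT replicate 4, Rpl3l made up 68.6% of its pair with Rpl3, against 75.1% to 75.9% in the other pMT libraries. The level of the ribosomal protein genes after removal of the length trend was 0.052 in pMT replicate 4, against -0.09 to -0.07 in the others. The mitochondrial genome held 22.6% of the counts of pMT replicate 4, against 11.1% to 12.9%. In pMT/VitD replicate 4, Rpl7l1 made up 2.56% of its pair with Rpl7, against 1.99% to 2.07%.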

How the results depend on the processing

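The number of called members depended on how the libraries were weighted. In this section, shares of all genes are given only for the fit without pMT replicate 4 and pMT/VitD replicate 4. The other counts are therefore not read as results about the members. For surgery minus control, where 0 were called, library size only gave 1 (Rpl7l1), length removal 1 (Rpl3l), DESeq2 1 (Rpl3l), voom with quality weights 6 and the groups compared alone 23. For pMT minus surgery, voom gave 10. For pMT/VitD minus surgery, where 2 were called, the fit keeping any count above 0 gave 0, the groups compared alone 0, the fit without mitochondrial genome counts 1, copies summed 1, DESeq2 4, voom 77 and the fit without pMT replicate 4 and pMT/VitD replicate 4 gave 47. For pMT/VitD minus pMT, DESeq2 gave 1, voom 82 and the fit without that pair 80. The interaction gave 81 with voom and 7 without that pair. With pMT against without, where 2 were called, length removal gave 8, DESeq2 5, voom 47 and the fit without that pair 10. Without that pair, 20.1% of all genes were called in pMT/VitD minus surgery and 18.3% in pMT/VitD minus pMT. The shares were 1.89% in the interaction and 28.5% with pMT against without. The cause was not tested. Library size only moved the median of all genes to -0.32 in pMT/VitD minus surgery and to -0.23 with pMT against without, and then called members were lower (2, and 3).

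Leaving out 1 library gave 0 to 5 calls for pMT/VitD minus surgery and 1 to 8 with pMT against without, both highest without pMT/VitD replicate 4, and 0 in the other 5 comparisons. Replicate numbers did not pair the libraries (r of -0.50 to 0.17 over 24 same-numbered pairs, 2 above 0.1). With a replicate block the calls were 0 for pMT/VitD minus surgery and 1 with pMT against without, and 0 elsewhere.

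The span of the members' level over libraries, 0.97, was 0.52 with TPM, 0.71 with library size only and 0.21 with the length trend removed. Some small differences that were not called changed sign. Rpl3 in pMT/VitD minus pMT was -0.15 with library size only, -0.082 with length removal and -0.083 to 0.19 when 1 library was left out. Rpl3 in VitD minus surgery was -0.024 with voom and -0.12 to 0.27 when 1 library was left out, and Rpl3l there -0.13 to 0.011.

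The comparison of pMT against without, the summing of copies, the paralog ratios with libraries left out and the gene lists without the pair were chosen after seeing the data.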

Other observations

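Relative to the level of the class, the member most like Rpl3l over the 15 libraries was Rpl7a (r = 0.91). It is named after its values were seen, and the libraries share depth and scaling.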
